A study of Rattus norvegicus with 96 samples.

Results

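The kidney-labelled gene table held mRNA counts from 12 male Sprague Dawley rats, and the comparison described is whole egg (egg) against casein in that table. Members were chosen by a count rule alone: a gene entered the test with 10 or more counts in 6 or more libraries, and 9610 of 32883 genes met that rule. The genes tested carried 99.5% of all counts, and no gene passed through the libraries of only 1 diet. Of the rest, 15051 genes had no count in any library and 8222 had counts below the rule.

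The egg group was 6 rats fed a whole egg-based diet, and the casein group was 6 rats fed a diet with casein, a milk protein, as its protein source. Both diets had the same protein content and were eaten for 2 weeks, both groups were trained to eat on a schedule, and tissue was taken after an overnight fast. The diets differed in more than protein, because egg brings its own lipid and cholesterol while the casein diet carried corn oil, so protein and lipid cannot be told apart. The diet of each rat was read from the column headings, since the sample labels give only an animal number. The series holds 96 libraries, with mRNA and small RNA from the tissues labelled kidney, prefrontal cortex (PFC), liver and adipose.

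Whole egg is rich in cholesterol, and cells that take up sterol usually lower the transcription of the enzymes that make it, through the SREBP transcription factors held in the endoplasmic reticulum by sterol-sensing proteins. The brain makes nearly all of its own cholesterol, because lipoprotein cholesterol hardly crosses the blood-brain barrier, whereas the kidney and liver exchange it with blood. The tissue behind a table therefore matters for reading a diet comparison of these genes.

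The marker genes of the kidney-labelled gene table did not match its label. The 5 markers of kidney tubule cells with an identifier are given in CPM, each library's counts divided by its scaled total. The thiazide-sensitive salt transporter Slc12a3 had a median of 1.97 CPM (range 0.272 to 4.73) over the 12 libraries. The dicarboxylate transporter Slc13a2 had no count in 10 of 12 libraries, and the urate and phosphate transporter Slc17a3 had a median of 0.377 CPM with no count in 5. The brush border peptidase Xpnpep2 also had a median of 0.377 CPM, and the water channel Aqp1, which blood vessels and choroid plexus carry as well, had a median of 8.94 CPM. In the adipose-labelled gene table the same genes had medians of 209 CPM for Slc12a3, 50.7 CPM for Slc13a2, 67.6 CPM for Slc17a3, 39.7 CPM for Xpnpep2 and 1129 CPM for Aqp1.

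A pair of markers of nervous tissue were high in every library of the kidney-labelled gene table. Ptgds, the prostaglandin D synthase abundant in leptomeninges and oligodendrocytes, had a median of 1285 CPM (range 522 to 2028), against medians of 2.5, 7.59 and 13.8 CPM in the PFC-, liver- and adipose-labelled gene tables. Ptprn, a membrane protein of the secretory granules of neurons and endocrine cells, had a median of 507 CPM (range 285 to 744), against 8.11, 3.84 and 68.3 CPM in those tables. The highest liver-labelled library had 1442 CPM of Ptgds, the one overlap with the range in the kidney-labelled table. The hepatocyte enzyme Cps1, which starts the urea cycle, stood at a median of 9.44 CPM in the kidney-labelled and 1822 CPM in the PFC-labelled gene table. These markers point away from kidney and towards nervous tissue, but only Ptgds and Ptprn could be read by identifier on the nervous tissue side, and astrocyte and microglia markers were not analysed here, so the table is called by its label throughout.

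The small RNA table with the same label gave a different picture. Small and large RNA came from the same extraction of each tissue, so the 4 miRNAs whose shares carry this contrast are shown, with mature sequences from RefSeq (GRCr8) and capitals marking the seed, bases 2 to 8.
miR-9a-5p: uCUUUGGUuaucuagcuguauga
miR-10a-5p: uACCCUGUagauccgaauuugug
miR-10b-5p: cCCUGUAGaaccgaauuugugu
miR-192-5p: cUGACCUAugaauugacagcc
On GRCr8 the plus strand carries miR-10a-5p at chr10:81779730-81779752, miR-10b-5p at chr3:80035886-80035907 and miR-192-5p at chr1:212994232-212994252, and miR-9a-5p comes from 3 loci, of which the Mir9-1 copy is at chr2:175974986-175975008. As annotated, miR-10b-5p starts later than miR-10a-5p within a nearly shared sequence, so the windows of bases 2 to 8 differ.

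The brain-enriched miR-9a-5p was a median of 0.104% of the listed miRNA counts in the kidney-labelled small RNA table and 23.3% in the PFC-labelled one. miR-192-5p, abundant in kidney and liver, was 3.99% in the kidney-labelled and 0.261% in the PFC-labelled small RNA table. miR-10b-5p and miR-10a-5p were the leading miRNAs of the kidney-labelled small RNA table, with medians of 29.0% and 17.3%, and they also led the adipose-labelled one, with 50.1% and 13.3%, so they do not tell these labels apart. miR-192-5p does, at a median of 0.145% in the adipose-labelled small RNA table. The low miR-9a-5p share thus did not go with the high Ptgds and Ptprn of the gene table of the same label. At which step the mRNA table and its label parted was not tested, and the diets in its column headings could not be checked by any marker. These shares are of the miRNAs listed, not of a whole library.

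**Figure D1:**
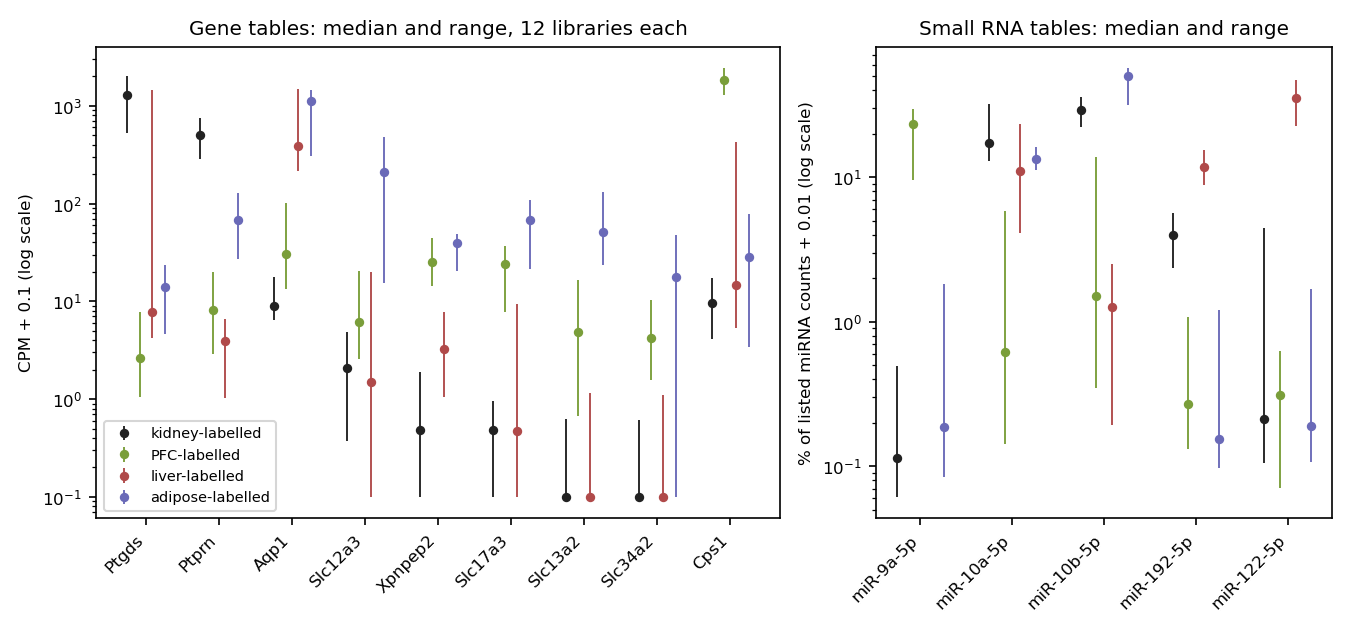
Left, CPM plus 0.1 of 9 marker genes in the 4 gene tables; right, percent of listed miRNA counts plus 0.01 of 5 miRNAs in the 4 small RNA tables, both on log axes, with points for medians and lines for the range over 12 libraries. Ptgds and Ptprn were highest in the kidney-labelled gene table, at medians of 1285 and 507 CPM, while miR-9a-5p was 0.104% in the small RNA table of that label.

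Library totals ran between 2844714 and 4619491 counts on egg and between 1942907 and 5001397 on casein. The library of casein rat 7 stood apart. It had the lowest total, the lowest scaling factor and a median correlation of 0.898 with the other libraries on log2 CPM, where the other 11 libraries had 0.942 to 0.961. On the first principal component, which held 29.4% of the variance, it scored -69.2, while the egg libraries lay between -12.6 and 19.0 and the other casein libraries between -6.65 and 19.4. None of the first 5 principal components separated the diets. Of 13 library measures compared by two-sided exact permutation over all 924 splits, the smallest p was 0.102, for Ptprn, and the adjusted p was 0.848 for each measure (Benjamini-Hochberg). No pair of libraries agreed within sampling noise, the closest having a chi-square of 6.80 per degree of freedom.

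**Figure D2:**
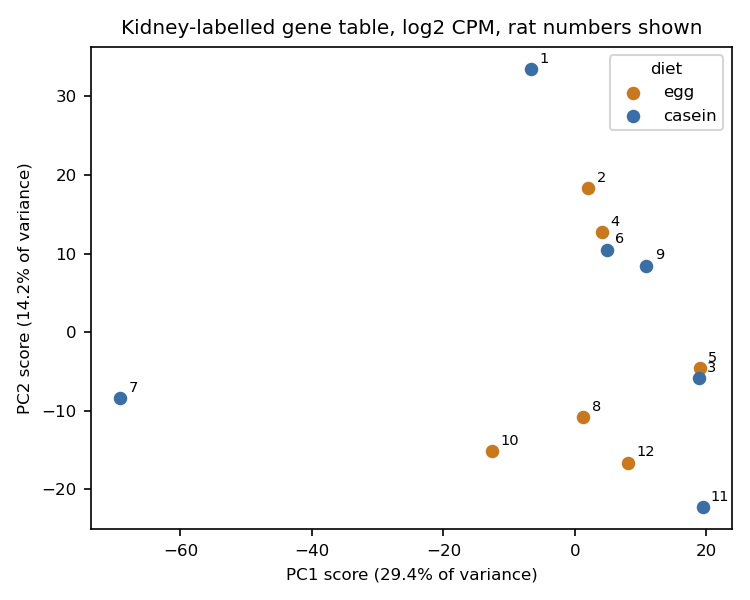
Scores of the 12 libraries on the first and second principal components of log2 CPM, with egg in orange, casein in blue and rat numbers beside the points. The diets overlap on both axes, and casein rat 7 lies alone at -69.2 on the first.

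Diet changed no gene past the threshold. With edgeR (quasi-likelihood, Benjamini-Hochberg adjusted over all genes tested), 0 genes were higher and 0 lower on egg at an adjusted p under 0.05 (0% of the genes tested in each direction), and the smallest adjusted p was 1.00. Before adjustment, p was under 0.05 in 56 genes (0.583%) in the higher and 71 genes (0.739%) in the lower direction on egg, 127 in all or 1.32% of the genes tested, where an even spread of p gives 5%. DESeq2 and limma-voom also gave 0 adjusted calls, with 144 and 140 of the 9610 genes at an unadjusted p under 0.05. Without casein rat 7 the adjusted calls were still 0. The genes at an unadjusted p under 0.05 then came to 286 of 9610, against 127 with it, a share still under the 5% of an even spread. The estimates themselves were small: the median log2 fold change was -0.01 (SD 0.22 over genes), and 98.2% of the genes tested had an estimate within 1.5-fold.

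A count of 0 does not say how large an effect could have been missed, so the 95% interval of each gene's log2 fold change was computed from the same edgeR fit. The whole interval lay within 2-fold in 8486 of 9610 genes (88.3%) and within 1.5-fold in 4493 genes (46.8%), and without casein rat 7 the shares were 88.6% and 47.4%. For these genes a larger average difference between the diets is outside the interval, gene by gene. The interval lay within 3-fold in 99.2% and within 4-fold in 99.9% of the genes, with 12 genes reaching past 4-fold. The median distance from estimate to bound was 0.46 on the log2 scale, which is a factor of 1.38. In equivalence tests (a pair of one-sided tests from the edgeR fit, Benjamini-Hochberg adjusted), 8932 genes passed for 2-fold and 4286 for 1.5-fold at an adjusted p under 0.05. Before adjustment, one-sided tests at 0.05 set a looser limit per gene than 95% intervals. The counts of the tests and of the intervals are therefore not like for like.

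Those limits hold for 1 gene at a time. With intervals widened so that all 9610 hold together (Bonferroni), 654 genes (6.81%) stayed within 2-fold and 7388 (76.9%) within 4-fold. A 2-fold effect was thus left out for most genes by the single intervals and by the adjusted equivalence tests. Under the stricter Bonferroni intervals it was left out for few.

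What could be left out depended on the level of the gene. The genes were ranked by mean CPM and cut into 5 bins of 1922. In the lowest bin, with a median of 4.54 CPM, 54.0% of genes had an interval within 2-fold and 0.416% within 1.5-fold. In the middle bin, with a median of 20.7 CPM, the shares were 97.8% and 53.5%. In the highest bin, with a median of 137 CPM, they were 99.4% and 84.7%, and the median distance to the bound there was a factor of 1.28. Small effects were therefore bounded for abundant transcripts and hardly at all for scarce ones.

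**Figure D3:**
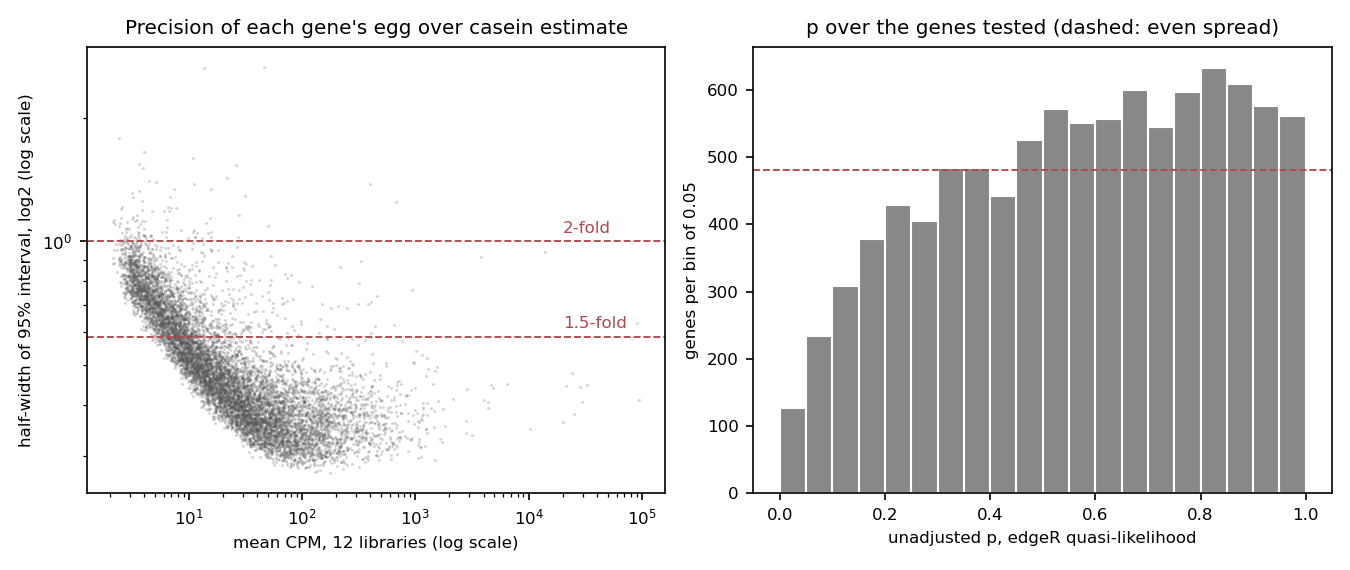
Left, each gene's distance from estimate to 95% bound (log2) against its mean CPM over 12 libraries, both axes on log scales, with dashed lines at 2-fold and 1.5-fold; right, number of genes per bin of unadjusted p, with the even spread dashed. The distance falls with level to a median factor of 1.28 in the highest bin, and genes with a p under 0.05 make up 1.32% of all.

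Symbols could be given to 73 genes, those that the study lists with identifiers, and 50 of them were tested. They were listed for differences in the other tables, so they are not a sample of the transcriptome. None of the 50 had an unadjusted p under 0.05, 22 estimates were positive and 28 negative, and the median log2 fold change was -0.02, beside -0.01 over all genes tested. The interval lay within 2-fold in 45 and within 1.5-fold in 30 of the 50, beside 88.3% and 46.8% of all genes tested. In bulk tissue, fewer cells of a type and less RNA per cell cannot be told apart in any of these values.

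Cholesterol synthesis enzymes did not pass the test in either direction. Of 21 enzymes listed, 10 had an identifier and all 10 were tested, with 0 higher, 0 lower, 5 positive and 5 negative estimates and a median log2 fold change of -0.00. All 10 intervals lay within 2-fold and 9 within 1.5-fold, Nsdhl being the exception.

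Hmgcs1, which makes HMG-CoA at the head of the pathway, had a lowest, median and highest level of 107, 126 and 144 CPM on egg, against 119, 141 and 171 CPM on casein. The ranges overlapped and 2 of 6 egg libraries were above the casein median. Its log2 fold change was -0.18 with a 95% interval of -0.48 to 0.12, the narrowest of the genes with a symbol, so a decrease of 1.5-fold lay outside it.

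Msmo1, which oxidises sterol methyl groups, had 93.6, 109 and 124 CPM on egg, against 62.2, 112 and 119 CPM on casein, the low casein value being that of rat 7. Cyp51, the lanosterol demethylase, had 56.0, 79.7 and 97.7 CPM on egg, against 53.6, 86.0 and 99.7 CPM on casein. The diets overlapped in both enzymes, with log2 fold changes of 0.03 (95% interval -0.31 to 0.36) for Msmo1 and -0.07 (-0.43 to 0.29) for Cyp51.

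Sqle, the squalene epoxidase, had a log2 fold change of -0.18 (95% interval -0.52 to 0.17), and 1 of 6 egg libraries was above the casein median. Nsdhl, a sterol dehydrogenase, had 0.29 (-0.14 to 0.72), the widest upward reach of the list. The interval of Fdps, which makes farnesyl diphosphate, was -0.43 to 0.47 about 0.02. The interval of Idi1, the isomerase before it, was -0.47 to 0.40 about -0.03, and that of Ebp, the sterol isomerase, was -0.55 to 0.39 about -0.08. Each of these 5 enzymes thus had 0 inside its interval.

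Of 14 genes of sterol sensing and uptake, 2 had an identifier, and neither met the count rule. Insig1, which holds the SREBP complex back when sterol is plentiful, had 59 counts over the 6 egg libraries and 61 over the 6 casein libraries and was below the count rule. In the edgeR fit with no filter on low counts, its log2 fold change was -0.16 with a 95% interval of -1.08 to 0.75.

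**Figure D4:**
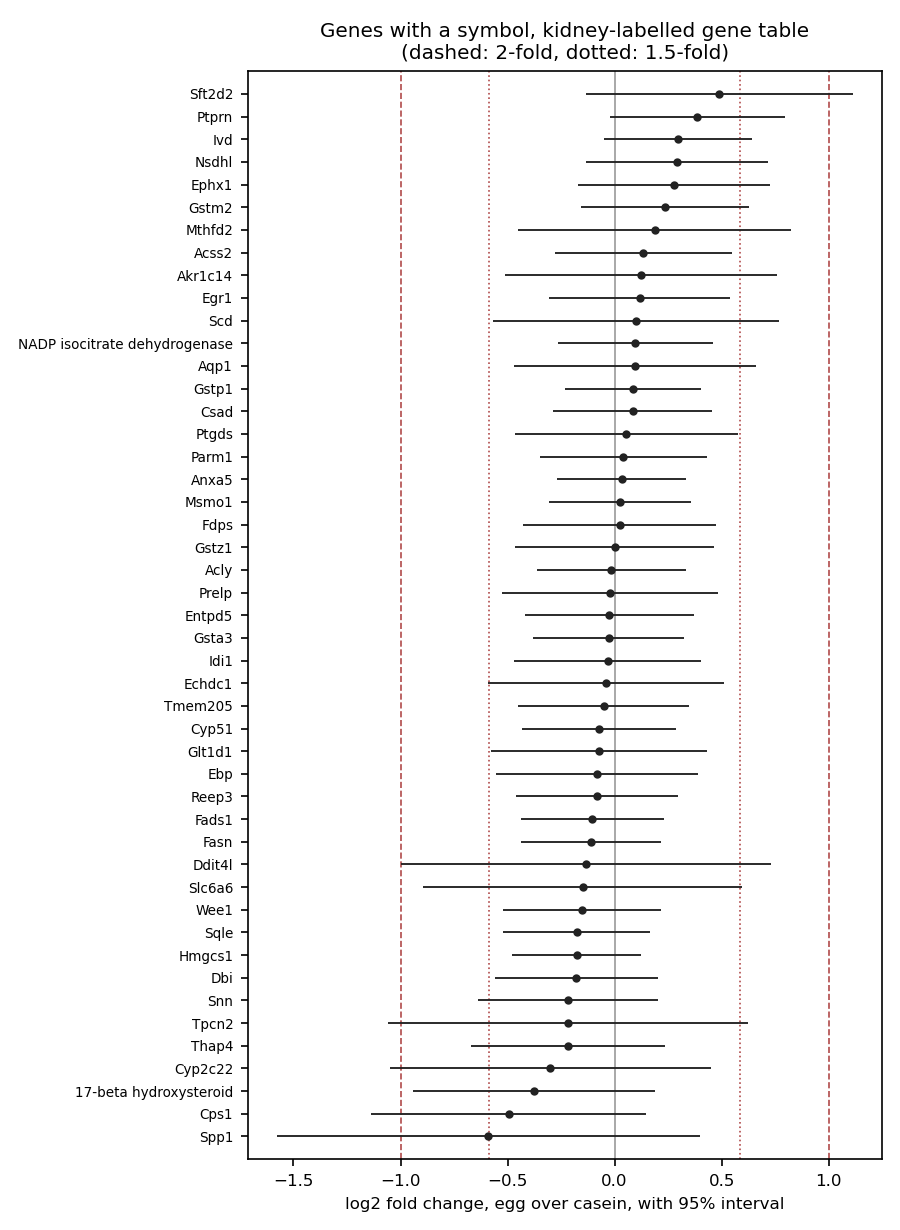
Log2 fold change, egg over casein, of 47 tested genes with a symbol, with 95% intervals from the edgeR fit and lines at 2-fold (dashed) and 1.5-fold (dotted). Each interval includes 0, 42 lie within 2-fold, and those of Spp1, Cps1, Tpcn2, Cyp2c22 and Sft2d2 reach past it.

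Fatty acid synthesis and desaturation genes had no calls either. Of 15 listed, 8 had an identifier and 6 were tested, with 2 positive and 4 negative estimates and a median log2 fold change of -0.06. Dbi, the acyl-CoA binding protein, was the most abundant, with 276, 289 and 354 CPM on egg, against 223, 311 and 534 CPM on casein, and a log2 fold change of -0.18 (95% interval -0.56 to 0.20). Acly, which makes cytosolic acetyl-CoA, had -0.02 (-0.36 to 0.33) and the fatty acid synthase Fasn had -0.11 (-0.44 to 0.22). Fads1, a desaturase of polyunsaturated fatty acids, had -0.10 (-0.44 to 0.23), and Acss2, which activates acetate, had 0.13 (-0.28 to 0.55). All 6 intervals were within 2-fold and 5 within 1.5-fold.

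In fatty acid oxidation 5 of 13 genes had an identifier and 3 were tested, with 0 calls and a median log2 fold change of -0.04. Ivd, which acts in leucine breakdown, had 142, 186 and 210.4 CPM on egg, against 103, 148 and 185 CPM on casein, and 5 of 6 egg libraries were above the casein median. Its log2 fold change was 0.30 (95% interval -0.05 to 0.64, unadjusted p 0.091 in edgeR's test across all genes), and a 2-fold difference lay outside the interval. Echdc1, a decarboxylase of acyl-CoA by-products, had -0.04 (-0.59 to 0.51).

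Of 14 glutathione transferases and detoxification genes, 7 had an identifier and 6 were tested. They had 0 calls, 3 positive and 3 negative estimates and a median log2 fold change of 0.04. Gstm2, a mu-class transferase, had 140.1, 162 and 214 CPM on egg, against 88.7, 132 and 234 CPM on casein. All 6 egg libraries were above the casein median, but the casein library of rat 11 was above every egg library, and the log2 fold change was 0.23 (95% interval -0.16 to 0.63). The alpha-class Gsta3 had -0.03 (-0.38 to 0.33), the pi-class Gstp1 had 0.09 (-0.23 to 0.40) and the zeta-class Gstz1 had -0.00 (-0.46 to 0.46). The epoxide hydrolase Ephx1 had 0.28 (-0.17 to 0.72). For Gsta3, Gstp1 and Gstz1 a 1.5-fold difference was outside the interval, and for Gstm2 and Ephx1 it was not.

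Among amino acid and one-carbon enzymes, 5 of 11 had an identifier and 4 were tested, with 0 calls and a median log2 fold change of -0.03. Csad, which leads to taurine, had 0.09 (95% interval -0.29 to 0.46), and Mthfd2, a mitochondrial folate enzyme, had 0.19 (-0.45 to 0.83). Slc6a6, the taurine transporter, had 12.3, 21.8 and 28.6 CPM on egg, against 8.98, 19.9 and 59.1 CPM on casein, where the highest casein value was that of rat 7. Its log2 fold change was -0.15 (-0.89 to 0.60) with rat 7 and 0.29 (-0.24 to 0.82) without, and with rat 7 kept it was 0.15 in limma-voom and 0.16 with a surrogate variable, so the direction of its estimate was not settled. Cps1 had 3.97, 6.83 and 13.7 CPM on egg, against 8.50, 9.84 and 17.1 CPM on casein, a log2 fold change of -0.49 (-1.14 to 0.15) at levels far under those of hepatocytes. The hepatocyte list had 6 of 9 genes with an identifier and 3 tested. The summed level of the 6 was 11.2 to 30.5 CPM on egg and 15.4 to 35.3 CPM on casein.

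Of 12 immediate-early and stress-response genes, 5 had an identifier and 3 were tested, with 0 calls. Egr1, an early response transcription factor that neurons induce with activity, had 197, 281 and 353 CPM on egg, against 129, 259 and 381 CPM on casein, with a log2 fold change of 0.12 (95% interval -0.30 to 0.54). Wee1, a brake on entry into mitosis, had -0.15 (-0.52 to 0.22) and Ddit4l, an inhibitor of mTOR signalling, had -0.13. The interval of Ddit4l, at a mean of 3.00 CPM, reached up to 0.73 and on the lower side ended just inside 2-fold.

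The markers that set the table apart from kidney did not differ past the threshold. Ptprn had 454, 547 and 744 CPM on egg, against 285, 375 and 641 CPM on casein, and all 6 egg libraries were above the casein median. It had the smallest p of the genes with a symbol, an unadjusted p of 0.063 in edgeR's test across all genes, with a log2 fold change of 0.39 (95% interval -0.02 to 0.79). Without casein rat 7, which had the lowest Ptprn level, the log2 fold change was 0.29 (-0.08 to 0.66). Ptgds averaged 1295 ± 502 CPM on egg and 1246 ± 380 CPM on casein (SD, n = 6 each), and its log2 fold change was 0.05 (-0.46 to 0.57). The summed kidney tubule markers, 5 of 12 with an identifier, lay between 9.37 and 17.7 CPM on egg and between 7.33 and 19.8 CPM on casein, most of it Aqp1. In connective tissue and vessel, 2 of 11 genes had an identifier and both were tested, Parm1, a mucin-like protein, at 0.04 and the matrix protein Prelp at -0.02.

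Of the genes with a symbol, the widest intervals were those of Spp1, Ddit4l and Tpcn2, and the narrowest those of Hmgcs1, Anxa5 and Gstp1. Spp1, the secreted matrix protein osteopontin, had 3.59, 6.46 and 20.6 CPM on egg, against 3.09, 13.04 and 24.4 CPM on casein. Its log2 fold change was -0.59 (95% interval -1.58 to 0.40), so a decrease of up to 2.99-fold on egg was not left out. The estimate was -1.03 without egg rat 2, its highest egg library, and -0.31 without casein rat 1, its highest casein library. Tpcn2, an ion channel of lysosomes, had -0.22 (-1.06 to 0.62), and Anxa5, a phospholipid-binding annexin, had 0.03 (-0.27 to 0.33).

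Sft2d2, a protein of vesicle transport, had 5.78, 8.23 and 12.3 CPM on egg, against 3.72, 5.09 and 10.4 CPM on casein, with a log2 fold change of 0.49 (95% interval -0.13 to 1.11). The gene listed as 17-beta hydroxysteroid had -0.38 (-0.94 to 0.19) and the cytochrome P450 Cyp2c22 had -0.30 (-1.05 to 0.45), the Cyp2c22 estimate ranging over -0.49 to -0.14 as single rats were left out. Thap4 and Snn had -0.22 each, with intervals of -0.67 to 0.23 and -0.64 to 0.20. None of these intervals left out 0.

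**Figure D5:**
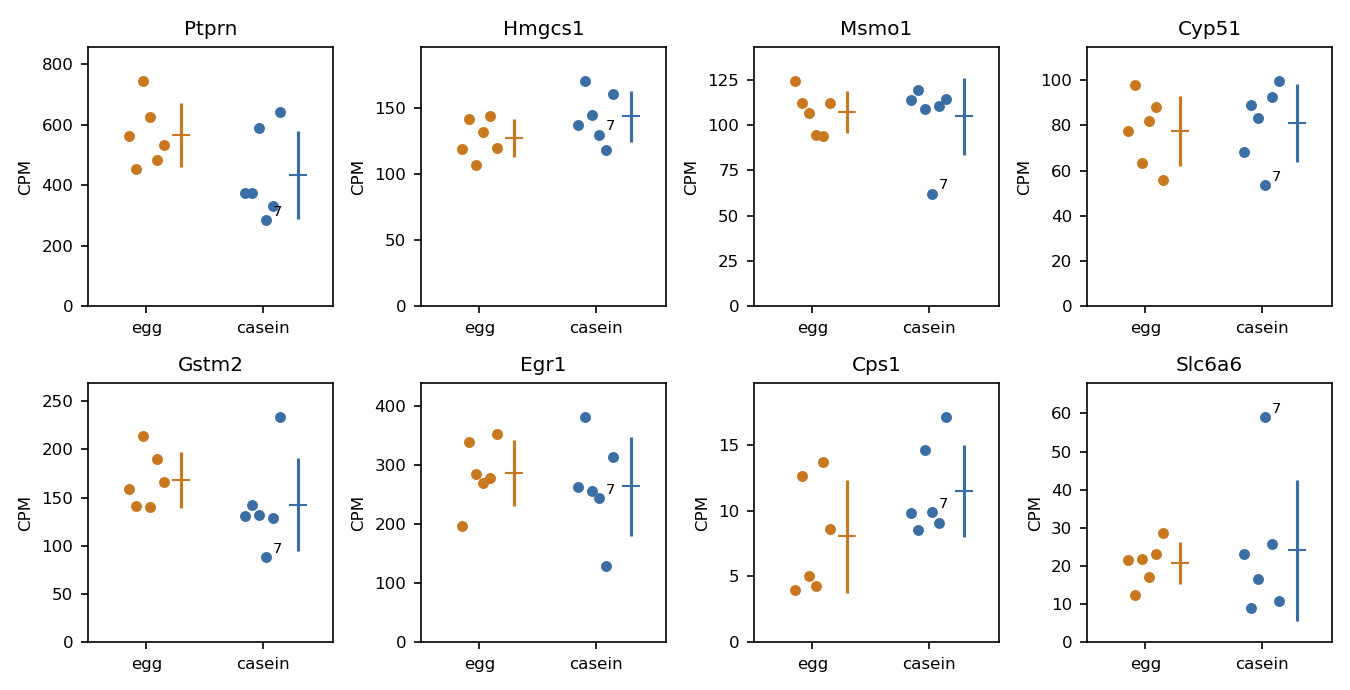
CPM in each library of 8 genes, egg left in orange and casein right in blue, with the mean and SD beside the points (n = 6 each) and casein rat 7 numbered. The diets overlap in every panel, and rat 7 is the highest casein library for Slc6a6 (59.1 CPM) and the lowest for Ptprn (285 CPM).

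The 4 genes without a symbol that follow are the ends of the table, chosen for the smallest unadjusted p in each direction, so their values are a description. How many of all genes tested had no overlap between the diets was not counted. ENSRNOG00000010896 had 9.56, 10.6, 10.8, 11.7, 12.6 and 13.1 CPM on egg, against 4.96, 5.11, 5.15, 6.16, 6.52 and 8.39 CPM on casein. The diets did not overlap, and the log2 fold change was 0.90 (95% interval 0.42 to 1.38, unadjusted p 0.00072, edgeR's adjusted p 1.00). ENSRNOG00000059059 had a median of 4.89 CPM on egg and 1.82 CPM on casein, with overlapping ranges and a log2 fold change of 1.24 (0.38 to 2.10).

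On the lower side, ENSRNOG00000018433 had a median of 8.09 CPM on egg and 14.7 CPM on casein, a log2 fold change of -0.81 (95% interval -1.30 to -0.32). ENSRNOG00000016505 had a median of 2.04 CPM and at most 2.77 CPM on egg, against a median of 3.82 CPM and at most 16.0 CPM on casein. The highest of these was casein rat 7, and its log2 fold change of -1.37 (-2.28 to -0.45) became -0.87 (-1.64 to -0.10) without that library. All 4 are scarce transcripts, and none had an interval that left out 2-fold.

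The 23 genes with a symbol that missed the count rule were not in the main test. Of these, Slc12a3 had 52 counts over the egg and 28 over the casein libraries, and Arrdc3, an arrestin of receptor trafficking, had 31 on egg and 14 on casein. Inmt, an N-methyltransferase of indoleamines, had 38 counts on egg and 24 on casein. The histamine-forming enzyme Hdc had 4 counts on egg and 2 on casein. In the edgeR fit with no filter on low counts, the log2 fold change was 0.72 (95% interval -0.36 to 1.79) for Slc12a3, 1.00 (-0.46 to 2.45) for Arrdc3 and 0.48 (-0.78 to 1.73) for Inmt. These intervals include 0 and reach past 2-fold. The smallest unadjusted p of the 23 in that edgeR fit were 0.030 for Acsm3 and 0.035 for Slc13a2, with an adjusted p of 0.94 for each. Acsm3 had 10 counts on egg and 1 on casein, with a log2 fold change of 2.49 (-0.90 to 5.88). Slc13a2 had 4 counts on egg and 0 on casein, so its interval had no finite bound.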

How the data were processed

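RNA was split into large and small fractions in 1 extraction, and large RNA was sequenced from its 3′ ends (QuantSeq). Per the study's methods the authors trimmed reads, aligned them with STAR to the Ensembl rat genome and counted reads per gene, and the deposited values are these raw counts. Which strand column was counted is not given in the sources used here. The deposited DESeq tables of comparisons were not used. Genes reaching 10 counts in 6 or more libraries were tested with edgeR 4.0.16 (R 4.3.3), TMM scaling and robust quasi-likelihood fits, egg over casein, with Benjamini-Hochberg adjustment over all genes tested. The sample labels give no diet, so diet came from the column headings. CPM use TMM-scaled library totals. Intervals are 95%, from the information matrix, the moderated quasi-dispersion and a t quantile, and their coverage was tested on simulated data. Library measures were compared by exact permutation. No label says more of the rats than their number. Each rat gave 1 library to the table, so the spread behind the p-values holds differences between rats together with those of tissue and library handling. The files name genes by Ensembl identifier only, and symbols came from the study's list. Genes were named by rule: up to 5 per list by mean CPM, those of smallest p (up to 10 per direction with a symbol, 2 without), and the 3 narrowest and 3 widest intervals. Members and lists were chosen with earlier results of these data known. Alternatives used DESeq2 1.42.0, limma 3.58.1, other scalings and filters, a surrogate variable and each rat left out. Quality weights were added after seeing the data. Some listed genes are counted in their lists but not reported here singly.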

Additional observations from a re-analysis of the deposited data

Results flagged for a closer look

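Within a diet of 6 libraries, 16 of 132 sets of values had 1 library farther from the nearest of the others than the critical limit for 6 values allows, where chance gives about 5%. The sets share libraries and genes and are not independent. Casein rat 7 accounted for the score of -69.2 on the first component (nearest -6.65), the median correlation of 0.898 (nearest 0.942), Msmo1 at 62.2 CPM (nearest 108.5), Anxa5 at 53.6 CPM, Csad at 75.8 CPM, Slc6a6 at 59.1 CPM and ENSRNOG00000016505 at 16.0 CPM.

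Other single casein libraries stood apart for the fourth component (rat 9, -36.3), Gstm2 (rat 11, 234 CPM), Gstz1 (rat 1, 12.6 CPM) and Aqp1 (rat 6, 17.5 CPM). Among egg libraries the values were -11.8 on the fourth component and 354 CPM of Dbi in rat 12, 70.0 CPM of Csad in rat 10, 41.2 CPM of Sqle in rat 4 and 20.6 CPM of Spp1 in rat 2.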

How the results depend on the processing

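No setting gave a gene past the threshold: edgeR, DESeq2, limma-voom with and without quality weights, both other scalings, both other filters, the surrogate variable and each rat left out all gave 0 higher and 0 lower, as did an adjusted p under 0.1. At an unadjusted p under 0.05 there were 127 of 9610 genes in the main fit. Of the same 9610 there were 286 without casein rat 7, 233 without casein rat 11 and 76 without egg rat 8. With quality weights, in which rat 7 had the lowest weight, 0.376, there were 327. With no filter there were 670 of 17832, and each of these shares was under the 5% of an even spread. Genes with an interval within 2-fold came to 654 with Bonferroni intervals. With no filter the median distance to the bound was 0.80, since scarce genes enter. Leaving out 1 rat at a time gave 84.0% to 88.6% of genes within 2-fold and 38.1% to 47.4% within 1.5-fold. Over 1126 estimates of 54 named genes under the alternatives, 85 had the other sign, in 27 genes with estimates of at most 0.18 in size. Slc6a6 turned to 0.29 without rat 7, its range over the rats left out being -0.33 to 0.29, to 0.27 with quality weights, to 0.15 in limma-voom and to 0.16 with the surrogate variable. No paired analysis was possible because each rat ate 1 diet. Scarce genes were bounded less closely: up to 7.06 CPM, 54.0% had an interval within 2-fold. The part of sequencing depth in this was not tested.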
